A study of Bos taurus with 28 samples.

Results

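The insulin-like growth factor (IGF) axis was followed in cow liver through IGF1, its numbered binding proteins IGFBP1 to IGFBP6, and IGF2R. The members were chosen by name: every probe whose annotated symbol is IGF1, IGF2R or IGFBP with a number. This gave 8 genes on 9 probes, of 8073 genes that the array names by 1 symbol, and all 8 had enough values to be tested among 6958 genes; IGFBP7 had no named probe here. IGF2R, the receptor that clears IGF2 and carries lysosomal enzymes, fell 2.36-fold in ketotic liver and was the only one of the 8 to pass the test. Of all tested genes, 12.4% passed as lower in ketotic cows, so 1 of 8 is near that share. IGFBP1 had the only higher mean of the 8, by 1.63 on the log2 scale, and did not pass. The differences of IGF1, of its main blood carrier IGFBP3 and of IGFBP2, IGFBP4, IGFBP5 and IGFBP6 ran from -0.59 to -0.079 and did not pass.

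The study compared liver of multiparous Holstein cows early after calving, examined as healthy on day 4 and assigned at random to a healthy or a ketosis group. From day 5 by the design text (day 4 in the sample labels), ketosis cows got 50% of their previous intake until clinical signs or, at the latest, day 14; healthy cows ate ad libitum. Each group had 7 cows. Liver RNA of each cow was hybridised on 2 arrays with the dyes exchanged, always against 1 reference RNA pooled from cattle tissues, so 28 arrays stand for 14 cows. Age and the sampling time of healthy cows are not stated in the labels.

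IGF1 is a growth factor that the liver secretes into blood under growth hormone, which acts through its receptor, JAK2 and STAT5. Most circulating IGF1 is held by IGFBP3 together with the acid-labile subunit IGFALS, while IGFBP1 binds IGF in smaller, short-lived complexes and is known to be made by liver when insulin is low. Around calving, dairy cows are known for low IGF1 despite high growth hormone. IGF2R does not signal like IGF1R; it is the cation-independent mannose 6-phosphate receptor, and it takes IGF2 and newly made hydrolases to lysosomes.

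Values are log2 ratios of liver over reference, with each array's median set to 0, averaged over the 2 arrays of a cow. A gene's log2 ratio can be compared between cows but not with another gene's. The hepatocyte markers' median lay above 0 on 28 of 28 arrays (lowest 2.65), so liver markers stood above the reference with the ratios turned in the likely direction. Healthy cow 7 stood apart, its correlations with other cows across probes being 0.397 to 0.483, while no pair among the remaining 13 cows fell below 0.792. Results are therefore also given without it. Ketotic arrays had more spots without a usable ratio, either empty or at the ceiling of the values (16.5% ± 4.49 SD against 11.9% ± 2.80 SD, n = 7 each, exact permutation p = 0.0338). The term for empty spots in later models is this share. On ketotic arrays the ratios also spread more widely (median absolute deviation 0.941 ± 0.124 SD against 0.756 ± 0.0865 SD, exact permutation p = 0.00758). Over all genes the median difference, ketotic minus healthy, was -0.18; 64 genes rose and 865 fell, against 123 and 493 when arrays were centred on common probes, with a median of -0.053.

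In the healthy cows the log2 ratio of IGF1 (gene ID 281239) ran from 0.33 through a median of 3.09 to 4.24, and in 6 ketotic cows from 1.36 through 2.21 to 3.37. Ketotic cow 6 had a value on 1 array only, 1.04, and was left out of the fit. Where a value on either array was enough, so that this cow entered, the difference was -0.77 (limma adjusted p = 0.392), against -0.59 in the main fit. The groups overlapped: healthy cow 7, at 0.33, was the lowest of all cows, and the other 6 healthy cows lay at 2.84 or above. Of the ketotic cows only cows 1 and 7, at 3.37 and 2.92, reached that range. The difference was -0.59 (SE 0.517, 95% interval -1.69 to 0.52, limma adjusted p = 0.497). Without healthy cow 7 it was -1.01 (SE 0.345, adjusted p = 0.0535), a 2.02-fold lower mean that stayed short of the threshold. A fall of IGF1 by more than 2-fold lies inside the first interval, so these arrays do not show that IGF1 was alike in both groups.

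IGFBP1 (gene ID 282259), the binding protein that rises in fasting, ran from 3.91 through 7.03 to 7.86 in healthy cows and from 7.31 through 8.17 to 10.11 in ketotic cows. All 7 ketotic cows lay above the healthy mean of 6.76, and ketotic cow 6 was the highest. The groups overlapped, since healthy cows 1, 5 and 6 (7.44, 7.81 and 7.86) stood above the lowest ketotic values. The difference was 1.63 (SE 0.570, 95% interval 0.41 to 2.84, limma adjusted p = 0.0718), or 1.15 without healthy cow 7 (adjusted p = 0.0618). Tested alone, with no adjustment over genes, it gave an exact permutation p = 0.0140, two-sided over 3432 ways to choose 7 of 14 cows. The value depended on scaling: with all arrays brought to one spread the difference was 0.16 (adjusted p = 0.913), and without healthy cow 7 as well it was -0.27. Healthy cow 7 itself was measured at 6.30 with its liver in Cy3 and at 1.52 with its liver in Cy5, the widest gap between the 2 arrays of any cow for the 8 genes.

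**Figure D1:**
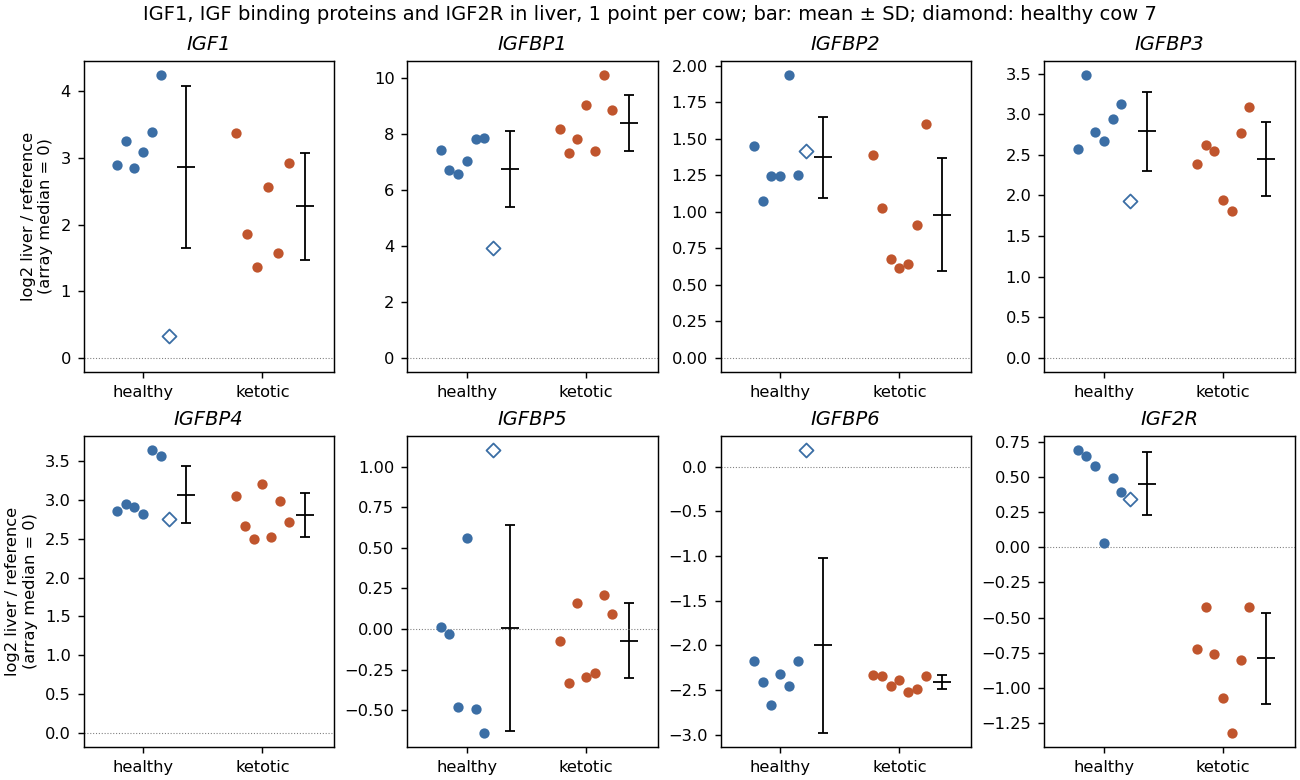
Log2 liver over reference of the 8 genes in each cow, with the array median at 0; points are cows, bars are mean ± SD, and the diamond is healthy cow 7. The groups separate for IGF2R alone, and the diamond lies far from the other healthy cows for IGF1 (0.33), IGFBP1 (3.91) and IGFBP6 (0.18).

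IGFBP3 (gene ID 282261), which with IGFALS holds most IGF1 in blood, ran from 1.93 through 2.79 to 3.48 in healthy cows. In ketotic cows it ran from 1.80 through 2.55 to 3.09, with 6 of 7 below the healthy mean. The groups overlapped over most of their range. The difference was -0.34 (SE 0.241, 95% interval -0.85 to 0.18, limma adjusted p = 0.388), and -0.48 (adjusted p = 0.128) without healthy cow 7. The difference was -0.87 (adjusted p = 0.0685) with one spread, and -0.98 (adjusted p = 0.0189) with one spread and without healthy cow 7.

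IGFBP2 (gene ID 282260), a liver-made carrier found mostly in small complexes, ran from 1.08 through 1.25 to 1.93 in healthy cows. In ketotic cows it ran from 0.62 through 0.91 to 1.6. Ketotic cows 3, 4, 5, 6 and 2 lay below every healthy cow, and ketotic cows 1 and 7 lay among or above most of them. The difference was -0.39 (SE 0.187, limma adjusted p = 0.178), and -0.64 (adjusted p = 0.0291) with one spread.

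IGFBP4 (gene ID 282262), a carrier known for holding back IGF action, was read by 2 probes that disagreed. Its gene value ran from 2.75 through 2.90 to 3.64 in healthy and from 2.50 through 2.72 to 3.21 in ketotic cows, with a difference of -0.26 (SE 0.183, limma adjusted p = 0.376). On its own, one probe differed by -0.73 (SE 0.198, adjusted p = 0.0312 in the fit over probes) and the other by 0.20 (SE 0.308, adjusted p = 0.732). In healthy cow 7 the first read 4.19 and the second 1.31, so the gene's mean hid 2 unlike readings of that cow. The direction for IGFBP4 is therefore uncertain.

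IGFBP5 (gene ID 404185), known for binding to extracellular matrix, ran from -0.64 through -0.03 to 1.10 in healthy and from -0.33 through -0.07 to 0.21 in ketotic cows. Its difference of -0.079 (SE 0.245, 95% interval -0.60 to 0.44, limma adjusted p = 0.876) was smaller than the spread between cows, and it turned to 0.10 without healthy cow 7. IGFBP6 (gene ID 404186), the carrier with a preference for IGF2, ran from -2.67 through -2.32 to 0.18 in healthy and from -2.52 through -2.38 to -2.33 in ketotic cows. The 7 ketotic cows lay close together (SD 0.0789), and 6 healthy cows lay around them at -2.17 or below. Only healthy cow 7, at 0.18, stood off. The difference was -0.41 (SE 0.341, limma adjusted p = 0.468) with that cow and -0.045 (SE 0.114, 95% interval -0.29 to 0.20) without it.

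The IGF2R readings (gene ID 281849) were complete, with a ratio at 56 of 56 spots. Healthy cows ran from 0.03 through 0.49 to 0.69, and ketotic cows from -1.32 through -0.76 to -0.43. The groups did not overlap: the highest ketotic cows, 2 and 7, were below healthy cow 4, the lowest of its group. The mean fell by 1.24 on the log2 scale (SE 0.164, 95% interval -1.59 to -0.89, limma adjusted p = 0.00194, n = 7 per group), from 0.45 ± 0.225 SD to -0.79 ± 0.323 SD. Only 4 of 6958 genes had a smaller p. The exact permutation p was 0.000583, the smallest these cows can give. Without healthy cow 7 the fall was 1.26 (adjusted p = 0.000938). So 1 of 8 members passed, lower in ketotic cows, where 12.4% of all tested genes did; 1 of 8 had groups that did not overlap, where 5.39% of all genes had them in that direction. No member rose, where 0.92% of all genes did. In either direction 13.4% of all genes passed. Without healthy cow 7 the count stayed at 1 of 8, where 18.4% of genes passed lower, 1.5% higher and 19.9% either way; groups that did not overlap were then found for 8.59% of genes in the lower direction.

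The fall of IGF2R was seen on both dye orientations. With liver in Cy3 the healthy cows read -0.43 to 0.52 and the ketotic cows -1.45 to -0.50, with no overlap and a difference of -1.32 (limma adjusted p = 0.00279). With liver in Cy5 the healthy cows read 0.07 to 1.18 and the ketotic cows -1.23 to 0.19. There the ranges overlapped, and the difference of -1.17 had an adjusted p = 0.0612, on arrays where 12 genes passed in all. In 14 of 14 cows the Cy5 reading of IGF2R was above the Cy3 reading, by 0.75 ± 0.510 SD, a dye effect that is the same way round in both groups and cancels in a cow's mean. IGF1 leaned the other way, with 3 of 13 cows higher in Cy5 and a mean gap of -0.46 ± 0.738 SD. For IGFBP3 the 2 arrays differed by 0.041 ± 0.427 SD.

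**Figure D2:**
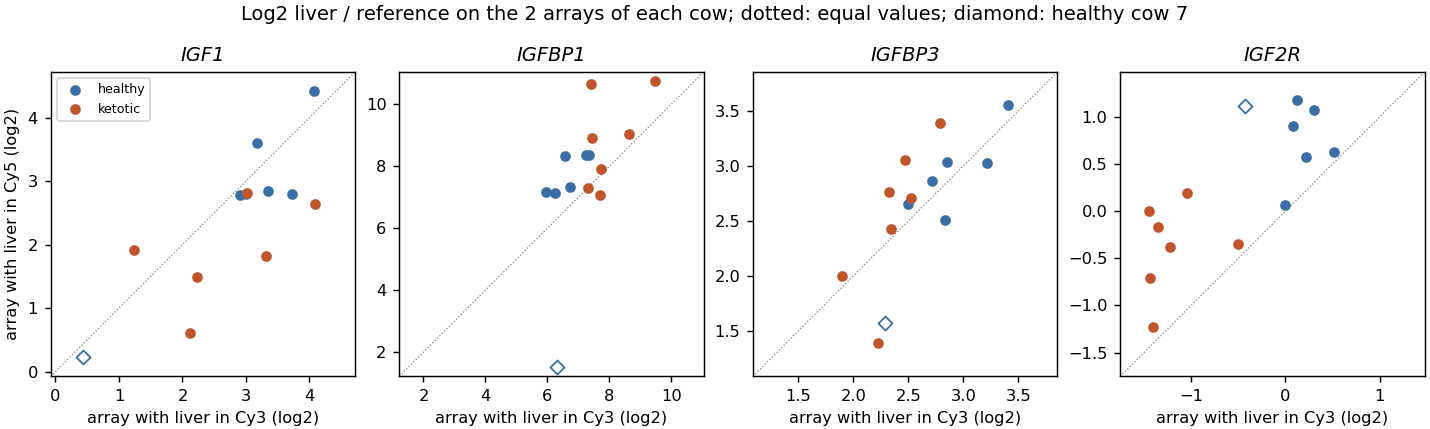
Log2 liver over reference on the array with liver in Cy3 (x axis) and the array with liver in Cy5 (y axis) of each cow, for 4 of the genes; the dotted line marks equal readings and the diamond healthy cow 7. For IGF2R all cows lie above the line and the groups separate along the x axis, while healthy cow 7 lies far below the line for IGFBP1 (6.30 and 1.52).

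The rest of the IGF system was read through IGF2, IGF1R, INSR and IGFALS, so that 12 of 13 listed genes were tested. IGF2R was the only one to pass, 8.33% lower against 12.4% of all genes, and 11 of the 12 had a negative difference, with a median of -0.31 against -0.18 over all genes. IGFALS, the acid-labile subunit that completes the complex with IGFBP3, differed by -0.87 (SE 0.346, limma adjusted p = 0.111); healthy cows ran from 0.54 to 3.20 and ketotic cows from 0.56 to 2.0, all 7 below the healthy mean of 2.14. Healthy cow 7 was the lowest of its group, and without it IGFALS fell by 1.13 (adjusted p = 0.00928), making 2 of 12 lower, where 18.4% of all genes were. IGF2, the ligand of IGF2R, differed by -0.29 (adjusted p = 0.400), with ranges of 2.28 to 3.23 and 1.47 to 3.07. IGF1R, the signalling receptor, differed by -0.26 (adjusted p = 0.733) and by 0.17 without healthy cow 7, which stood alone at 1.43. INSR, the insulin receptor, differed by -0.096 (adjusted p = 0.774); its 2 probes differed by -0.39 and 0.20 and read 2.21 and -0.71 in healthy cow 7. With one spread 5 of the 12 fell, where 7.4% of all genes did.

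**Figure D3:**
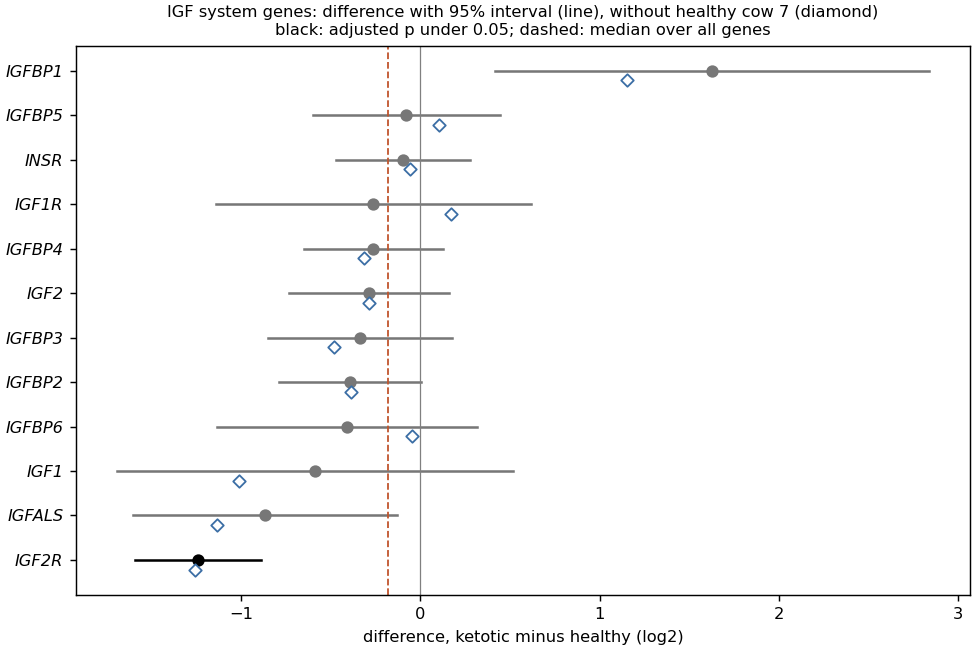
Difference between ketotic and healthy cows on the log2 scale for the 12 tested genes of the IGF system, with 95% intervals; diamonds give the difference without healthy cow 7 and the dashed line the median over all genes (-0.18). Only IGF2R passed with all cows; IGFALS and IGF1 moved to -1.13 and -1.01 without that cow.

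Within each cow, the gap between IGFBP1 and IGF1 does not depend on how the array was centred. This gap and the next were chosen after the values were seen, so they are descriptions, with no test. IGFBP1 minus IGF1 was 3.90 ± 0.430 SD in 7 healthy cows and 5.83 ± 0.635 SD in 6 ketotic cows. The ranges, 3.45 to 4.55 and 4.81 to 6.47, did not overlap, and healthy cow 7 lay inside the healthy range. IGFBP1 minus IGFALS was 4.62 ± 0.611 SD and 7.11 ± 1.31 SD in 7 cows each, again without overlap. The mean gaps differed between the groups by 1.93 and 2.49. With one spread they differed by 0.86 and 1.35, and the groups overlapped for both. With quantile normalisation they differed by 1.76 and 2.18. The groups then overlapped for IGFBP1 minus IGF1 (healthy up to 5.63, ketotic from 4.43) but not for IGFBP1 minus IGFALS.

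Across cows, IGF1 and IGFBP3 moved together to some extent. Over 13 cows Pearson's r was 0.666 (permutation p = 0.0132, 0.0395 adjusted over 3 pairs of genes) and Spearman's rho 0.698 (permutation p = 0.00964, adjusted 0.0289). Within the healthy cows r was 0.838 (exact permutation p = 0.0347, adjusted 0.104) and rho 0.786 (exact p = 0.0480, adjusted 0.144), and within 6 ketotic cows r was 0.259 and rho 0.20 (exact permutation p = 0.603 and 0.714). Without the 2 cows farthest from the median of IGF1, healthy cow 7 and ketotic cow 3, r was 0.639 (permutation p = 0.0327, adjusted 0.0781), so the relation over all cows no longer passed. For IGF2R, whose groups are separate, its relations to IGFBP3 and IGF1 are given within groups. IGFBP3 and IGF2R correlated at r = 0.881 among 7 ketotic cows (exact permutation p = 0.0139, adjusted 0.0417) with rho 0.75 (exact p = 0.0663, adjusted 0.199). Without ketotic cows 4 and 5, farthest from the median of IGFBP3, r was 0.513 over 5 cows (exact permutation p = 0.417). So few cows cannot show whether the relation rests on those 2. Among healthy cows r was 0.329 and rho 0.25 (exact permutation p = 0.458 and 0.595). IGF1 and IGF2R gave r = 0.126 in 7 healthy and 0.292 in 6 ketotic cows (exact permutation p = 0.794 and 0.539).

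Among genes measured in at least 12 cows together with the member, the 3 with the most similar order of cows were picked for each by Spearman's rho, as a description. For IGF1 (6313 genes searched, 13 cows) these were ANXA6, AUH and APOM, at rho 0.962, 0.929 and 0.907 and r 0.928, 0.908 and 0.935. For IGFBP3 (6717 genes, 14 cows) they were KIAA1191, SOCS2 and CTNNBL1, at rho 0.912, 0.899 and 0.895 and r 0.897, 0.884 and 0.739. IGF2R was most alike PHGDH, GNAS and MPG, at rho 0.938, 0.925 and 0.903 and r 0.849, 0.864 and 0.847, over 14 cows. All 3 of the latter fell in ketotic cows (-0.99, -0.74 and -0.63, limma adjusted p = 0.0169, 0.0199 and 0.0363), so the difference between the groups that they share with IGF2R enters each pooled rho. Within 7 healthy cows their rho with IGF2R was 0.893, 0.786 and 0.429, and within 7 ketotic cows 0.786, 0.607 and 0.786. Without healthy cow 7 these 9 values of rho ran from 0.874 to 0.951. All cows share the reference RNA, and the scaling of an array enters both genes of a pair.

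Growth hormone signalling was covered by 9 of 16 listed genes, and none of them passed in limma, where 12.4% of all genes fell and 13.4% passed either way; none of the 9 had an unadjusted p under 0.05. SOCS2, which is induced by growth hormone and damps its receptor, had the largest difference of them, -1.16 (SE 0.589, limma adjusted p = 0.213; -1.49 and 0.0655 without healthy cow 7). Healthy cows ran from 0.39 to 4.03 and ketotic cows from -0.69 to 2.83. STAT3, another factor downstream of JAK kinases, had the smallest p in the list (-0.55, adjusted p = 0.207) and fell by 0.73 without healthy cow 7 (adjusted p = 0.0455). GHR, JAK2, STAT5A and STAT5B had no named probe here.

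Inside the cell, 3 of 23 tested genes of insulin and IGF receptor signalling fell and none rose, 13.0% against 12.4% of all genes lower. They were the adaptor SHC1 (-0.72, SE 0.163, limma adjusted p = 0.0116), RHEB, the small GTPase that switches on mTORC1 (-0.57, SE 0.142, adjusted p = 0.0178), and the GTPase NRAS (-0.74, SE 0.214, adjusted p = 0.0324). The call on NRAS was lost in 14 of 31 alternatives, among them the omission of any 1 of 6 cows (healthy 1 and 6, ketotic 1, 2, 4 and 5; adjusted p = 0.0510 to 0.0628). SHC1 and RHEB separated the groups without overlap, where 5.39% of all genes did so in that direction. None of the 23 passed with one spread, with quantile normalisation or with a term for empty spots in the model. In those settings 7.4%, 7.72% and 2.3% of all genes passed as lower.

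Proteins that cut or hold IGF binding proteins gave 1 fall and 1 rise among 16 tested genes, 6.25% lower against 12.4% of all genes, while 0.92% of all genes rose. FN1, fibronectin of the extracellular matrix, fell by 1.52 (SE 0.179, limma adjusted p = 0.00112), from -0.19 to 0.42 in healthy cows to -2.03 to -0.98 in ketotic cows. MMP9, a matrix protease, rose by 1.25 (SE 0.381, adjusted p = 0.0477), with values in 5 healthy and 6 ketotic cows. The filter needs 5 cows per group. MMP9 could therefore not be tested when any 1 of those 5 healthy cows, cow 7 among them, was left out. Its call was lost in 14 of 23 alternatives. These included one spread, quantile normalisation, no centring and either dye alone. They also included the omission of ketotic cow 4, 6 or 7, or of healthy cow 5 or 6 (adjusted p = 0.0548 to 0.0845 for the omissions). Healthy cows 5 and 6 had no MMP9 value, so leaving them out could not change its difference. None of 4 tested binding protein related genes passed; CRIM1 was nearest (0.32, adjusted p = 0.136; 0.38 and 0.0454 without healthy cow 7). IGF2BP2, which binds IGF2 mRNA, differed by 0.24 (adjusted p = 0.841).

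IGF2R also belongs to the route that brings hydrolases to lysosomes, and there more genes were lower. Of 26 tested genes of mannose 6-phosphate tagging and sorting 9 fell, IGF2R included, and 1 rose, 34.6% lower against 12.4% over all genes; the median difference was -0.50 against -0.18. M6PR, the smaller mannose 6-phosphate receptor, fell by 0.55 (SE 0.166, limma adjusted p = 0.0405), a call lost in 20 of 31 alternatives, among them the omission of any 1 of 10 cows (healthy 1 to 4 and 6, ketotic 1, 2, 4, 5 and 7; adjusted p = 0.0531 to 0.0834). The 3 core subunits of retromer, the coat that returns such receptors from endosomes to the Golgi, fell as well. VPS35 fell by 0.71 (adjusted p = 0.0198), VPS29 by 0.67 (adjusted p = 0.0244, or 0.0501 without ketotic cow 7) and VPS26A by 0.78 (adjusted p = 0.0249). AP1M2, a subunit of the adaptor that loads clathrin vesicles, fell by 0.67 (adjusted p = 0.0108). Named after their values were seen, SNX1, CLTA and RAB9A fell too, and VPS26B, a second form of the VPS26 subunit, was the gene that rose (0.59, adjusted p = 0.0365). Without healthy cow 7, 13 fell and 1 rose, where 18.4% of all genes fell. The count rested on the scaling: with one spread or quantile normalisation only IGF2R fell in each case, a share of the 26 below the 7.4% and 7.72% of all genes that fell there. The list medians were then -0.37 and -0.36, against -0.15 and -0.18 over all genes. With arrays centred on common probes 4 of 26 fell, where 7.09% of all genes did.

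The gap between IGF2R and M6PR within cows, also chosen after the values were seen, is given as a description, with no test. IGF2R minus M6PR was 0.64 ± 0.418 SD in healthy and -0.053 ± 0.371 SD in ketotic cows (n = 7 each). The ranges of 0.15 to 1.13 and -0.46 to 0.60 overlapped.

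Lysosomal proteins that carry the mannose 6-phosphate tag, most of them hydrolases, were lower in part. Of 31 tested 9 fell and none rose, 29.0% against 12.4% of all genes lower, with a median of -0.40. FUCA1, the lysosomal fucosidase, fell by 1.09 (SE 0.167, limma adjusted p = 0.0025), TPP1, a peptidase, by 0.73 (adjusted p = 0.00816), CTSC, the cathepsin C protease, by 1.08 (adjusted p = 0.00963), and NPC2, the cholesterol carrier of lysosomes, by 0.89 (adjusted p = 0.0104). FUCA1, TPP1 and CTSC separated the groups without overlap. Named after their values were seen, HEXA, MAN2B1, SMPD1 and ASAH1 did so too, all lower in ketotic cows. Over all genes 5.39% did so in that direction. The count was 12 of 31 without healthy cow 7, 10 with one spread and 11 with quantile normalisation, where 18.4%, 7.4% and 7.72% of all genes fell. It was 1 of 31 with a term for empty spots in the model, where 2.3% of all genes fell. With liver in Cy5 alone, where 0.144% of all genes fell, none of the 31 and none of the 26 passed.

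**Figure D4:**
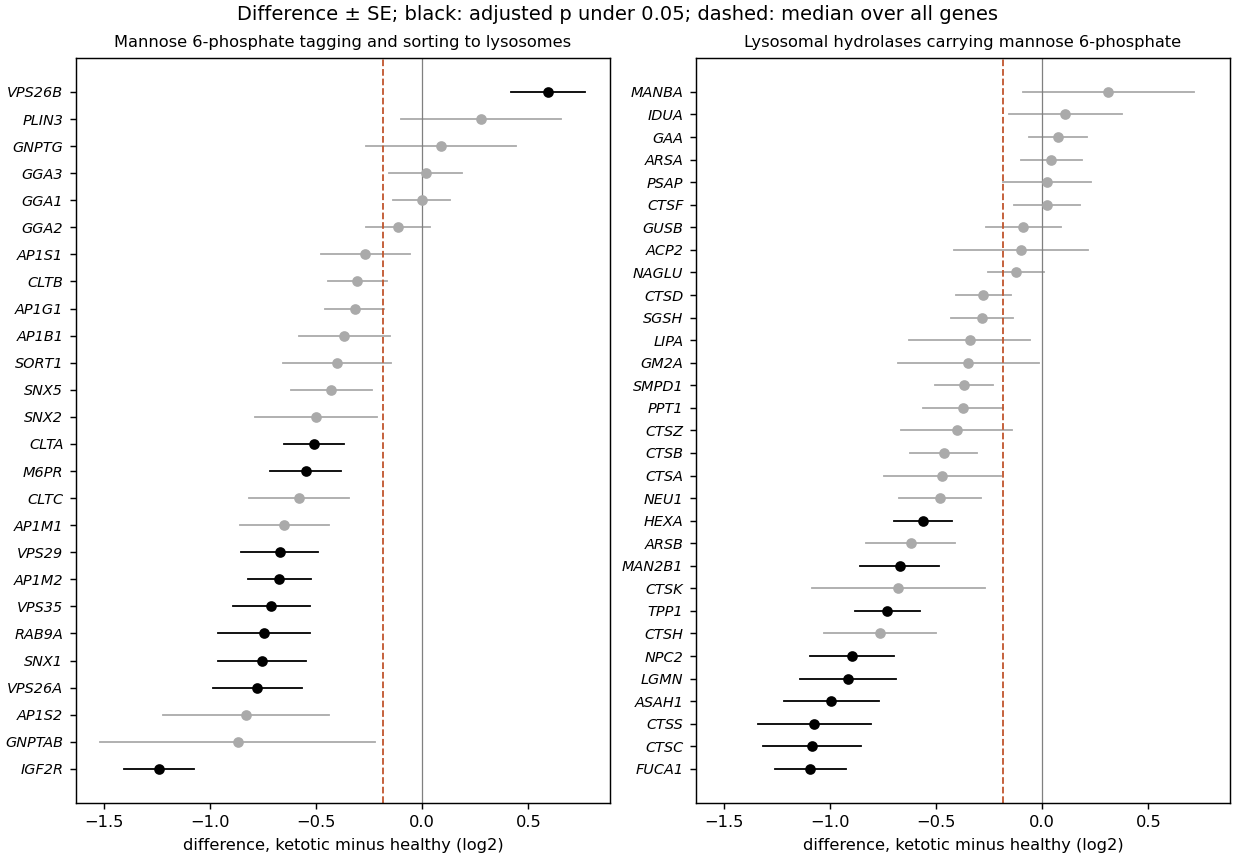
Difference between ketotic and healthy cows (log2, ± SE) for 26 genes of mannose 6-phosphate sorting and 31 of lysosomal proteins, mostly hydrolases. Black points passed at an adjusted p under 0.05 and the dashed line is the median over all genes (-0.18). IGF2R has the lowest value on the left (-1.24) and FUCA1 on the right (-1.09).

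Markers of liver cell types were read in the same cows. In whole liver, fewer cells of a type and less RNA per cell cannot be told apart. The mean log2 ratio over 17 hepatocyte markers ran from 3.39 to 7.02 in healthy and from 5.76 to 6.78 in ketotic cows. Healthy cow 7 was lowest there too, the other healthy cows lying at 5.41 or above, as it was for IGF1, IGFBP1, IGFBP3 and IGFALS. The mean over 15 stellate cell and fibroblast markers ran from -2.15 to 0.28 in healthy cows, with cow 7 at 0.28, and from -2.69 to -1.68 in ketotic cows; cow 7 was also the highest healthy cow for IGFBP5 and IGFBP6. Over 10 macrophage markers it ran from 0.92 to 2.91 and from 0.88 to 2.12, and 3 of the 10 fell (CD74, LAPTM5 and AIF1), while 2 of 17 hepatocyte markers rose (ALB and APOA1). Over all genes 12.4% fell and 0.92% rose, which is also the background for the counts that follow. Endothelial markers ran from 0.26 to 1.61 and from 0.27 to 1.5, and none of the 10 passed. In the 6 bile duct, 7 lymphocyte and 5 neutrophil markers, 1, 2 and 0 fell and 0, 1 and 1 rose, and neither of 2 blood markers passed. Healthy cow 7 was the lowest healthy cow for the macrophage (0.92), endothelial (0.26) and blood (-0.22) markers as well. It was not the lowest for the bile duct, lymphocyte or neutrophil markers. The part of these cell types in the IGF values was not tested.

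The calls on the 8 genes were compared over the ways of processing the arrays. IGF2R kept its fall under each scaling, from 1.64 as deposited to 1.11 with arrays centred on common probes. IGFBP2 and IGFBP4 passed as lower with one spread (-0.64 and -0.87) and as deposited (-0.79 and -0.66), but not with quantile normalisation (adjusted p = 0.0525 and 0.0647). With one spread 3 of 8 thus passed, all lower, where 7.4% of all genes passed lower, 0.503% higher and 7.9% either way. With one spread and without healthy cow 7 it was 5 of 8, all lower, where 18.9% passed lower, 2.38% higher and 21.3% either way. IGF1 passed with a robust fit (-0.87, adjusted p = 0.0466) and with one spread without healthy cow 7 (-1.59, adjusted p = 0.00261).

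**Figure D5:**
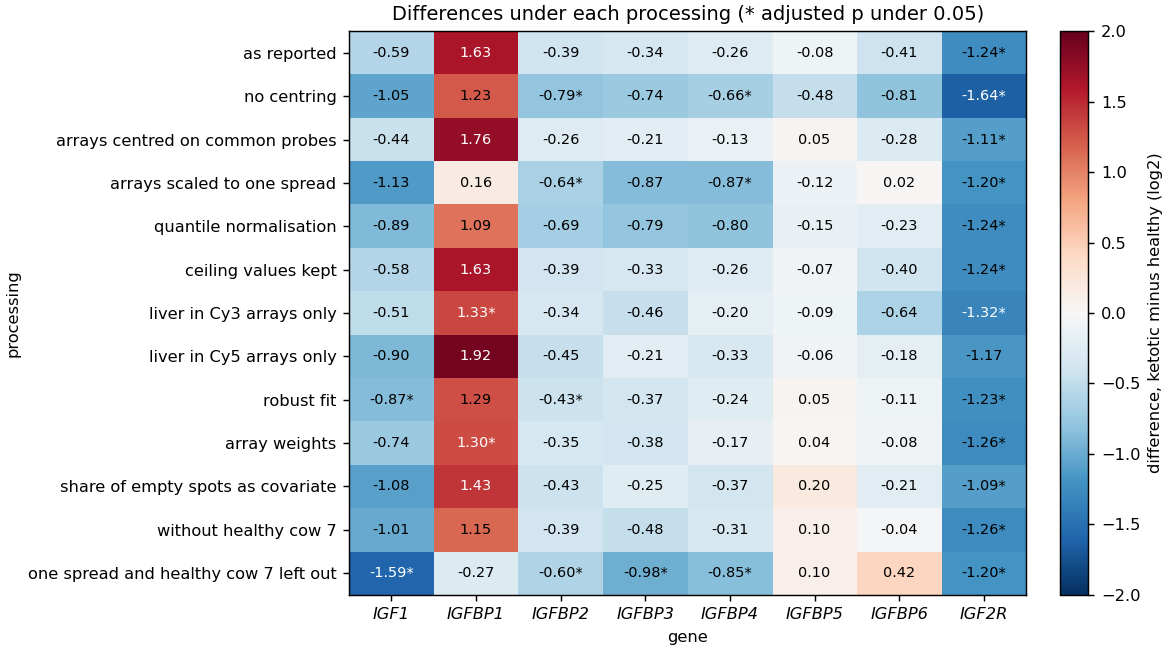
Difference between ketotic and healthy cows (log2) of the 8 genes (columns) under 13 ways of processing (rows), coloured from lower (blue) to higher (red); stars mark an adjusted p under 0.05. IGF2R is lower in every row and passes in all but the arrays with liver in Cy5, and IGFBP1 ranges from 1.92 to -0.27.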

How the data were processed

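Liver RNA of 14 cows was measured on 28 two-colour arrays. The authors deposited 1 log2 ratio of the dyes per spot; the software behind it was not given in the sources used here. Array medians ran from -1.06 to 2.12. The ceiling of 16.61 held 6245 values, read as missing like 103458 empty cells. Where Cy3 held the liver, the sign was turned; the direction is likely, from the titles' dyes and the hepatocyte markers, and 1 ketotic array's labels name Cy5 for both channels.

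Adjacent spots were averaged to 13824 probes, arrays centred on their median and a cow's 2 arrays averaged. Probes with values in 5 cows per group (10420) gave 6958 genes, each the mean over its probes. Of 13824 probes, 8645 had 1 symbol and 105 several; symbols came from the platform annotation, 8620 updated through ARS-UCD2.0.

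Groups were compared with limma 3.58.1 (R 4.3.3; lmFit, eBayes, two-sided, Benjamini-Hochberg over all genes, threshold 0.05), tested on simulated data; errors are moderated. Figures used matplotlib 3.10.9. The members and lists were chosen with earlier results of these data known. Named were the members, up to 4 passing genes per list (or the gene with the smallest p), 8 fixed genes where measured, and 3 alike genes for each of IGF1, IGFBP3 and IGF2R. Alternatives in scaling, dye, filter, model and cows were run. Cow numbers are names only. The number of arrays limits the precision.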

Additional observations from a re-analysis of the deposited data

Results flagged for a closer look

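In 56 groups of 7 cows (the named genes in each group), a cow far from the others was searched for; one was found in 8 of them. Chance alone marks about 1 in 20 groups, 2.8 here. In 6 of the 8 it was healthy cow 7. That cow read 0.33 for IGF1, 3.91 for IGFBP1, 0.18 for IGFBP6, 1.43 for IGF1R, -0.16 for SHC1 and 0.24 for NRAS. For IGF1 and IGFBP1 it was far below the other healthy cows (from 2.84 and 6.56), and for IGFBP6 and IGF1R far above them. Ketotic cow 2 read 1.47 for IGF2, with the nearest ketotic cow at 2.39. Ketotic cow 5 read -2.49 for VPS26A. The cause was not tested.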

How the results depend on the processing

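IGF2R kept its fall and its call in 32 of 33 alternatives (-1.64 to -1.09). With liver in Cy5 alone it was -1.17, not past the threshold. The alternatives in filter, the fit over probes and the unadjusted exact test could not change its difference, since 1 probe with complete values read IGF2R. The count of genes passing, 929 as reported (64 higher, 865 lower), was 2477 without centring, 616 with arrays centred on common probes (123 higher, 493 lower), 550 with one spread, 562 with quantile normalisation, 12 with liver in Cy5 alone, 1734 with a robust fit, 1435 with array weights, 168 with a term for empty spots and 1466 with one spread and without healthy cow 7; leaving out 1 cow gave 652 to 1368. Members past the threshold only in some alternatives were IGFBP2 (-0.79 without centring, -0.64 with one spread, -0.43 robust, -0.60 with one spread and without healthy cow 7, -0.39 by the unadjusted exact test), IGFBP4 (-0.66, -0.87 and -0.85 without centring, with one spread, and with one spread and without that cow; -0.73 on one probe), IGFBP1 (1.33 with liver in Cy3 alone, 1.3 with array weights, 1.29 with common probes and without that cow, 1.63 by the unadjusted exact test), IGF1 (-0.87 robust, -1.59 with one spread and without that cow) and IGFBP3 (-0.98 in the latter). Signs turned for IGFBP5 (0.053 with common probes, 0.049 robust, 0.042 with array weights, 0.20 with a term for empty spots, 0.10 with one spread and without healthy cow 7, 0.24 with common probes and without it), IGFBP6 (0.022 with one spread, 0.42 and 0.093 in the last pair of settings), IGFBP1 (-0.27 with one spread and without that cow), the other IGFBP4 probe (0.20), IGF1R (0.067 robust, 0.064 with the term, 0.44 and 0.31 in the last pair), INSR (0.036 with common probes, 0.022 with array weights, 0.047 with the term, 0.081 with common probes and without that cow), CRIM1 (-0.076 without centring) and IGF2BP2 (-0.16 without centring, -0.011 with liver in Cy5). None of these turned values passed. Leaving out 1 cow gave IGFBP5 -0.19 to 0.10 (0.014 without healthy cow 4, 0.10 without 7), IGF2BP2 -0.23 to 0.45 and IGF1R -0.42 to 0.17. The group difference in the gap of IGFBP1 over IGF1 was 0.86, and over IGFALS 1.35, with one spread. The cause was not tested.

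No paired analysis was possible because the cow numbers only follow the order of accessions and link no ketotic cow to a healthy one.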
